A study of Homo sapiens with 6 samples.

Results

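Basement membrane collagens comprise the chains of collagen IV and the multiplexin collagens XV and XVIII. The genes were taken by symbol from the deposited table (COL4A1 to COL4A6, COL15A1 and COL18A1), and all 8 were found once each among its 23754 features. They were compared between IMR-90 human fetal lung fibroblasts that carry a doxycycline-inducible hairpin against ZNF469 and were cultured without doxycycline (DOX-, 3 libraries) or for 4 days in doxycycline at 2 µg/mL (DOX+, 3 libraries). Both groups carry the integrated lentiviral vector (Tet-pLKO-puro) under puromycin selection; the hairpin is the one named sh-2, and the labels call the control genotype wild-type although the study describes the same line without induction. DOX+ libraries received the hairpin and doxycycline together, so their effects cannot be told apart here, and the submitters call the libraries technical replicates, so the p-values may measure technical spread only.

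Collagen IV forms the sheet-like network of basement membranes. Its 6 chains assemble into heterotrimers, of which the trimer of alpha1(IV) and alpha2(IV) chains is found in nearly every tissue, while trimers with alpha3(IV), alpha4(IV), alpha5(IV) and alpha6(IV) chains are restricted to sites such as the kidney glomerulus, the lung alveolus and some smooth muscle and epithelial membranes. Collagens XV and XVIII are heparan or chondroitin sulfate proteoglycans at the border of basement membrane and stroma, with a triple helix broken by many interruptions. The C-terminal part of collagen XVIII can be released as endostatin, a fragment that restrains vessel growth.

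The 6 collagen IV genes lie in head-to-head pairs: COL4A1 with COL4A2 on chromosome 13, COL4A4 with COL4A3 on chromosome 2, and COL4A6 with COL4A5 on chromosome X. In the RefSeq starts on GRCh38.p14, 126 bases separate the start of COL4A1 from that of COL4A2, 418 bases separate COL4A4 from COL4A3, and 379 bases separate the nearer of the COL4A6 starts from COL4A5, the other lying 1415 bases away. Of all 34943 RefSeq starts, 6.54% had a start on the opposite strand, pointing away from it, within 126 bases. The whole stretch between COL4A1 and COL4A2 (chr13:110307158-110307283, plus strand, so COL4A2 reads onward from its right end and COL4A1 from its left end) is shown because it separates the starts of the 2 most abundant members. It is followed by the 250 bases before COL4A5 (chrX:108439588-108439837, plus strand), a much weaker member, and the 250 bases before the first COL18A1 start (chr21:45404915-45405164, plus strand). Capitals mark the letters CCAAT, called a CCAAT box, and the letters GGGCGG, called a GC box, each on either strand.
COL4A1 and COL4A2 shared stretch: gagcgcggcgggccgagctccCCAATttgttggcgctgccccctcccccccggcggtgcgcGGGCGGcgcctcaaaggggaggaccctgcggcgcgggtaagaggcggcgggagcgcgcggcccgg
COL4A5: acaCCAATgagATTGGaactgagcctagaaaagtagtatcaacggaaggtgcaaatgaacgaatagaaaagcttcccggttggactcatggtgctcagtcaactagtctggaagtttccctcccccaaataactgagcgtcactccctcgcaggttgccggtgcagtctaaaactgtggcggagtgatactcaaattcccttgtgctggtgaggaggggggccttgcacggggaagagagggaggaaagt
COL18A1: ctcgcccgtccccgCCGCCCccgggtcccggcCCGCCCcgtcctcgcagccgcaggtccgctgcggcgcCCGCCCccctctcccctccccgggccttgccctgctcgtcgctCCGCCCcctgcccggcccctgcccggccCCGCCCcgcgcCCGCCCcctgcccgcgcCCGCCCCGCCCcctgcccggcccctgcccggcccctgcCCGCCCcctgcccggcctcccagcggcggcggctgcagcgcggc

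The stretch between COL4A1 and COL4A2 held 80.2% G or C, 20 CpG dinucleotides, 1 CCAAT box and 1 GC box. The 250 bases before COL18A1 were 88.4% G or C, higher than 99.95% of the 35116 RefSeq windows of that length, and held 9 GC boxes. Before COL15A1, whose letters are not shown, the window was 76.8% G or C with 38 CpG and 1 GC box. By contrast, the COL4A5 window was 51.2% G or C, below the median of 58.0% over all windows, and held 2 CCAAT boxes and 0 GC boxes. A CCAAT box was present in 32% of all windows and a GC box in 42.6%, so these matches are common and describe the letters only. The letters TATAAA, present in 10.7% of windows, was found in 1 window of the members, that of the second COL18A1 start, which lies inside the gene.

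The level of ZNF469, the gene targeted by the hairpin, was 118, 112 and 126 CPM (TMM-scaled counts relative to library size) in DOX- replicates 1, 2 and 3, and 80.4, 80.4 and 79.6 CPM in the DOX+ replicates. The DOX+ cells kept 67.5% of the transcript (log2 fold change -0.57, edgeR adjusted p = 3.31e-05). Libraries held 34057675 to 36120260 counts. DOX+ replicate 2 stood apart on the first principal component, scoring 38.2 where the others ran from -14.1 to 3.8, so results without it are given where they differ. The 8 fibroblast markers, which include COL1A1 and COL1A2, summed to 35991 to 37090 CPM in DOX- and 26831 to 27720 CPM in DOX+ libraries. Of them, 4 were called lower by edgeR, COL1A1, COL1A2, DCN (-0.18) and LUM (-0.22). Their part in the results for the basement membrane collagens was not tested. PDGFRA (-0.0030), PDGFRB (-0.02), THY1 (0.04) and VIM (-0.02) were not called. Most of the fall in the sum came from COL1A1 (mean 15509 CPM in DOX- and 9610 CPM in DOX+) and COL1A2 (10083 and 7107 CPM). PECAM1 and CDH5, which define endothelial cells, and KRT5, SFTPC and NKX2-1, which define epithelial cells, were at 0 counts in all 6 libraries. The 6 endothelial markers summed to 20.1 to 24.4 CPM in DOX- and 20.6 to 24.0 CPM in DOX+ libraries, nearly all from TEK, and the 6 epithelial markers to 0.201 to 0.654 and 0.561 to 0.773 CPM. Mural markers summed to 817 to 894 and 817 to 879 CPM, led by NOTCH3, and the 4 immune markers to 60.7 to 66.8 and 59.1 to 65.3 CPM. Nearly all of the immune sum came from CD68. CD3E was at 0 counts in all 6 libraries, and PTPRC and CD14 had at most 6 and 7 reads in a library. In bulk RNA, fewer cells of a type and less RNA per cell cannot be told apart.

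Expression of the 8 genes spanned a wide range. Per length, in the authors' FPKM averaged over the 6 libraries, the order was COL4A2 (350), COL4A1 (269.7), COL18A1 (45.7), COL15A1 (7.78), COL4A5 (0.784), COL4A6 (0.0562), COL4A3 (0.0106) and COL4A4 (0.00234). COL4A2 ranked 168 and COL4A1 ranked 214 among the 23754 features by this level. Each of the first 5 was separated from the next in all 6 libraries, and COL4A6 lay above COL4A3 and COL4A4 in all but DOX- replicate 1, where COL4A3 was listed at 0.0592 and COL4A6 at 0.0286 FPKM. COL4A3 and COL4A4 did not differ beyond their spread. The alpha1(IV) and alpha2(IV) pair together took 93.1% to 93.8% of the counts on the 8 genes in each library, and the multiplexin pair 6.10% to 6.77%.

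**Figure D1:**
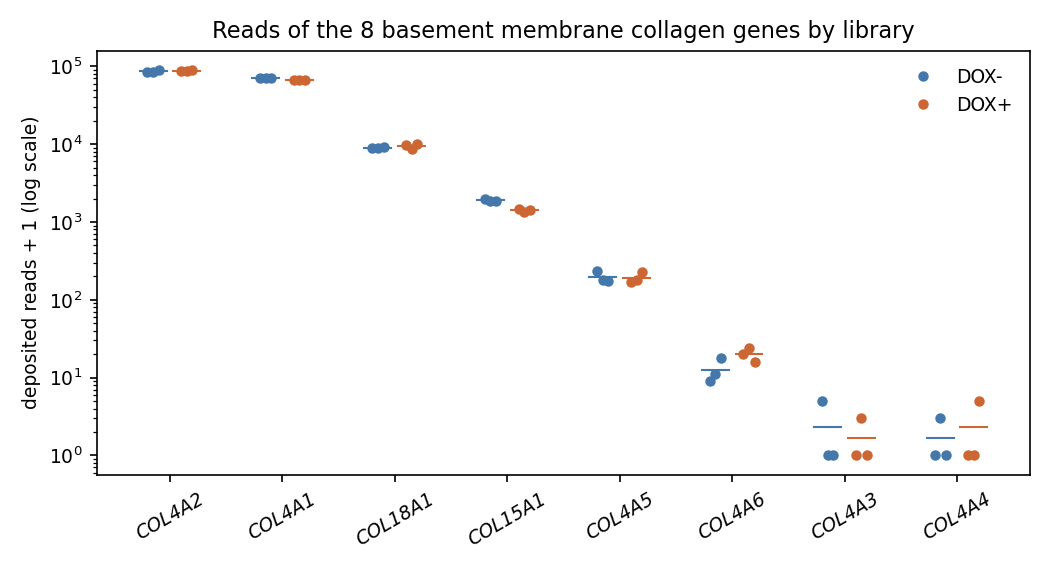
Deposited reads plus 1 for each of the 8 genes (log axis), with 1 point per library and a line at the group mean. COL4A2 and COL4A1 lie between 66199 and 89606 reads, while COL4A3 and COL4A4 have 0 to 4 reads in every library.

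Of the 8 genes, 6 had enough counts to be tested, and 2 of these, COL4A1 and COL15A1, were lower in DOX+ cells at an FDR of 0.05. None was called higher by edgeR or by DESeq2, but DESeq2 gave no adjusted p for COL4A5 and COL4A6, so it could not call them. Among all 13991 features tested by edgeR's quasi-likelihood test, 1.12% were called, 0.715% as lower and 0.4% as higher in DOX+ cells (100 and 56 features, or 77 and 88 with library size in place of TMM scaling). The median log2 fold change of the 6 tested members was -0.05, against -0.0019 over all features tested, and 4 of the 6 lay below 0, as did 7087 of the 13991. A called change of more than 1 on the log2 scale in either direction was found for 0.0429% of the features and for 0 of the 8 genes.

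COL15A1 (ENSG00000204291), the chain gene of collagen XV, lies on the plus strand of chromosome 9 from 98943179 to 99070792 in GENCODE 44 of GRCh38, with 42 exons in its canonical transcript of 5223 bp. Reads numbered 1966, 1834 and 1867 in the DOX- libraries and 1459, 1339 and 1443 in the DOX+ libraries. In CPM the DOX- libraries stood at 58.0, 52.1 and 53.5 and the DOX+ libraries at 40.9, 37.8 and 39.8. Every DOX+ library was below every DOX- library, as for 10.6% of all features tested. The mean fell from 54.6 ± 3.09 to 39.5 ± 1.59 CPM (SD, n = 3 each), and 72.4% of its level was kept. This log2 fold change of -0.47 had a standard error of 0.0544 (edgeR adjusted p = 0.000744) and a 95% interval of 66.7% to 78.6% of the DOX- level. This was the largest decrease among the tested members, and it was called in all 15 alternative settings.

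COL4A1 (ENSG00000187498) encodes the alpha1(IV) chain and lies on the minus strand of chromosome 13 from 110148963 to 110307157, with 52 exons. Its level was 2081, 2019 and 2036 CPM in DOX- replicates 1, 2 and 3 and 1856, 1870 and 1863 CPM in the DOX+ replicates. The 2 groups did not overlap, and 10.6% of all features tested were likewise separated with DOX+ lower. The mean fell from 2045 ± 32.3 to 1863 ± 7.01 CPM (SD, n = 3 each), which left 91.1% of the transcript. The log2 fold change was -0.13 (standard error 0.0215, edgeR adjusted p = 0.00643). The call was lost without DOX- replicate 1 (edgeR adjusted p = 0.0855) or without DOX+ replicate 1 (edgeR adjusted p = 0.0641), with log2 fold changes of -0.12 and -0.13.

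COL4A2 (ENSG00000134871), which encodes the alpha2(IV) chain, lies on the plus strand from 110305812 to 110513209 and has 48 exons. Its level was 2516, 2408 and 2540 CPM in the DOX- libraries and 2468, 2424 and 2474 CPM in the DOX+ libraries. The DOX+ values lay inside the range of the DOX- values. The log2 fold change was -0.02 (standard error 0.0236, edgeR adjusted p = 0.756), with a 95% interval of 95.2% to 102% of the DOX- level. A change of the size seen for COL15A1 lies outside that interval.

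COL4A1 was called and COL4A2 was not, so the ratio of this head-to-head pair within each library, which needs no scaling between libraries, was compared directly. Reads on COL4A1 per read on COL4A2 numbered 0.827, 0.838 and 0.801 in the DOX- libraries and 0.752, 0.771 and 0.753 in the DOX+ libraries. Every DOX+ ratio was below every DOX- ratio. The mean log2 ratio was -0.28 ± 0.0334 (SD, n = 3) in DOX- and -0.40 ± 0.0209 (SD, n = 3) in DOX+ cells. The difference of -0.12 had a two-sided exact permutation p of 0.1, below which this design cannot go. In the authors' FPKM the mean log2 ratio was -0.32 in DOX- and -0.43 in DOX+ cells, and the groups again did not overlap. The gene spans overlap by 1346 bp because an alternative COL4A2 transcript starts within COL4A1, but 0 exonic bases are shared in GENCODE 44. Over the 6 libraries the Pearson correlation of log2 CPM between the 2 genes was 0.42, and COL4A2 ranked 3181 among 11247 features by likeness to COL4A1.

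**Figure D2:**
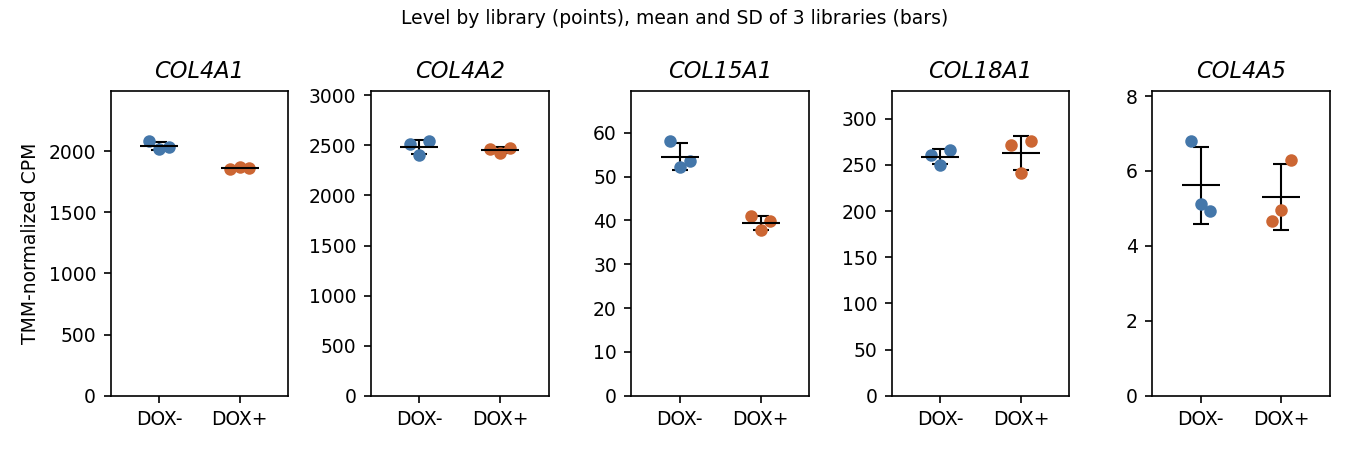
TMM-normalized CPM of the 5 members above 1 CPM, with points for libraries and bars for the mean and SD of 3 libraries; every axis starts at 0. The DOX+ points of COL4A1 and COL15A1 lie below all DOX- points, whereas those of COL4A2, COL18A1 and COL4A5 overlap the DOX- points. Of all features tested, 10.6% had every DOX+ library below every DOX- library.

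COL18A1 (ENSG00000182871), the chain gene of collagen XVIII, lies on the plus strand of chromosome 21 from 45405165 to 45513720. Its level was 261, 250 and 266 CPM in the DOX- libraries and 271, 241 and 275 CPM in the DOX+ libraries. The highest and the lowest value both belonged to DOX+ libraries. The log2 fold change was 0.02 (standard error 0.0485, edgeR adjusted p = 0.884), with an interval of 94.3% to 109% of the DOX- level. Without DOX+ replicate 2, which held the lowest value, it was 0.08 (edgeR adjusted p = 0.475). SLC19A1 overlaps COL18A1 on the opposite strand, with 1563 exonic bases in common and 558 to 682 reads of its own. Reads in that stretch cannot be told apart unless strand was used, which the sources do not state.

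The multiplexins COL15A1 and COL18A1 were set against each other after their values had been seen. Reads on COL15A1 per read on COL18A1 numbered 0.223, 0.209 and 0.201 in the DOX- libraries and 0.151, 0.157 and 0.145 in the DOX+ libraries. The groups were separated, with a difference in mean log2 ratio of -0.48. As the pair was chosen with the fall of COL15A1 known, this separation is a description and not a test.

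**Figure D3:**
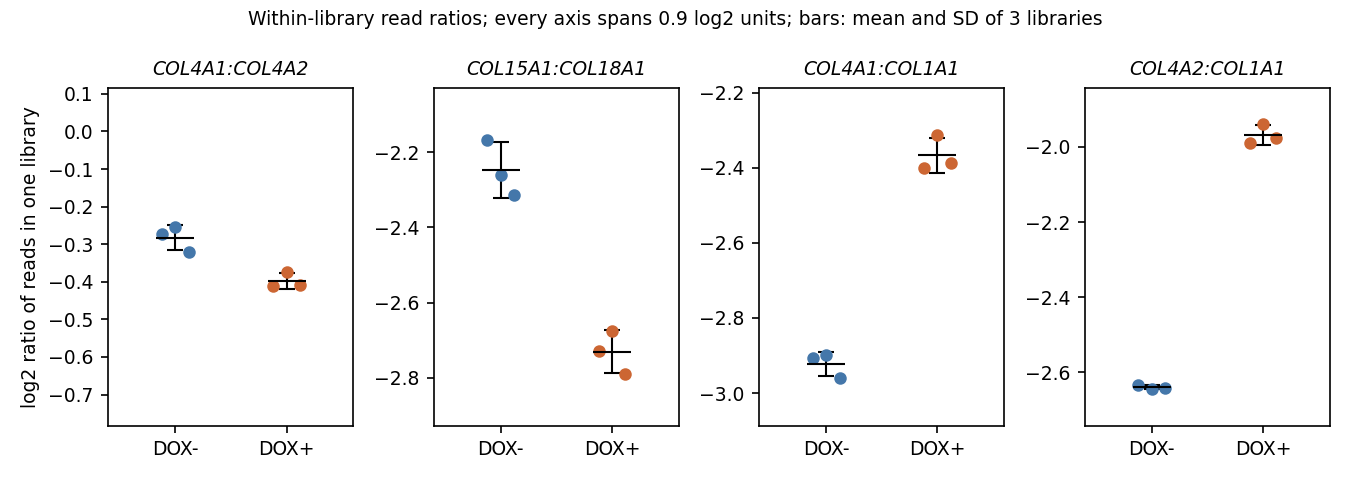
Log2 ratio of reads between 2 genes of the same library, with points for libraries and bars for the mean and SD of 3 libraries; every axis spans the same 0.9 log2 units. The DOX+ mean differs from the DOX- mean by -0.12 for COL4A1 to COL4A2, -0.48 for COL15A1 to COL18A1, 0.56 for COL4A1 to COL1A1 and 0.67 for COL4A2 to COL1A1.

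COL4A5 (ENSG00000188153) encodes the alpha5(IV) chain and spans chromosome X from 108439838 to 108697545. Reads numbered 230, 180 and 172 in the DOX- libraries and 166, 176 and 228 in the DOX+ libraries. A single library in each group, DOX- replicate 1 and DOX+ replicate 3, lay well above the others, and the groups overlapped. The log2 fold change was -0.08 (standard error 0.163, edgeR adjusted p = 0.864), and its interval of 74.1% to 121% of the DOX- level does not exclude a change as large as that of COL4A1.

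COL4A6 (ENSG00000197565), for the alpha6(IV) chain, spans chromosome X from 108155607 to 108439497 on the minus strand. It had 8, 10 and 17 reads in the DOX- libraries and 19, 23 and 15 in the DOX+ libraries. The values overlapped, and the gene met the count filter through the DOX+ libraries, so its presence among the tested features is not evidence of a rise. The log2 fold change was 0.65 (standard error 0.445, edgeR adjusted p = 0.522), with an interval of 80.7% to 307% of the DOX- level. Without DOX- replicate 3 it was 1.02 (edgeR adjusted p = 0.534). The ratio of COL4A5 to COL4A6 reads ran from 7.65 to 28.8 over the 6 libraries, with DOX- values of 28.8, 18 and 10.1 and DOX+ values of 8.74, 7.65 and 15.2. It was not tested, since DOX- replicates 1 and 2 had 10 or fewer reads on COL4A6.

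COL4A3 and COL4A4, the alpha3(IV) and alpha4(IV) genes of the pair on chromosome 2, were at or near the limit of detection. COL4A3 had 4 reads in DOX- replicate 1, 2 reads in DOX+ replicate 2 and 0 in the other 4 libraries. COL4A4 had 2 reads in DOX- replicate 2, 4 reads in DOX+ replicate 3 and 0 in the other 4. In no library were both genes of this pair seen. A count of 0 allows up to 3 reads, or 0.0831 to 0.0881 CPM in these libraries (counting error only), and no fold change is given for either gene. Of the 3 head-to-head pairs, then, both genes were abundant in the first, COL4A5 was low and COL4A6 barely detected in another, and neither was reliably detected in the last.

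Other collagen classes were read from the same fit, to place these changes. Over all features tested, edgeR called 0.715% lower. Of 10 fibrillar chain genes tested, 4 were called lower, at a median log2 fold change of -0.19 over the 10. COL1A1, the alpha1 chain of collagen I, fell by 0.69. COL1A2 fell by 0.50, COL3A1 by 0.50 and COL5A2 by 0.34 on the log2 scale, the highest edgeR adjusted p of these being 2.29e-05. COL6A1 and COL6A3 were called lower among 3 type VI genes tested (log2 fold changes -0.21 and -0.12), and 0 of 2 type VIII genes tested were called by edgeR, 0 of them at an unadjusted p under 0.05 (COL8A1 at -0.07 and COL8A2 at -0.0029). COL15A1 therefore changed by an amount near those of COL3A1 and COL1A2, and COL4A1 by an amount near that of COL6A3.

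Ratios to COL1A1 within each library, chosen after the values had been seen, describe the same differences without scaling. The mean log2 ratio of COL4A1 to COL1A1 was -2.92 ± 0.0329 (SD, n = 3) in DOX- and -2.37 ± 0.0469 (SD, n = 3) in DOX+ cells. That of COL4A2 to COL1A1 was -2.64 ± 0.0056 and -1.97 ± 0.0261 (SD, n = 3 each), and that of COL15A1 to COL1A1 differed by 0.23. Each of these 3 ratios separated the groups completely. COL1A1 was chosen with its fall of 0.69 known, a fall larger than that of each of the 3 genes. The separation follows from that choice and is not a test, so no p-value is given. The 8 genes took 0.471% to 0.490% of each DOX- library and 0.464% to 0.467% of each DOX+ library, while the 11 fibrillar genes took 2.75% to 2.82% and 1.86% to 1.92%.

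**Figure D4:**
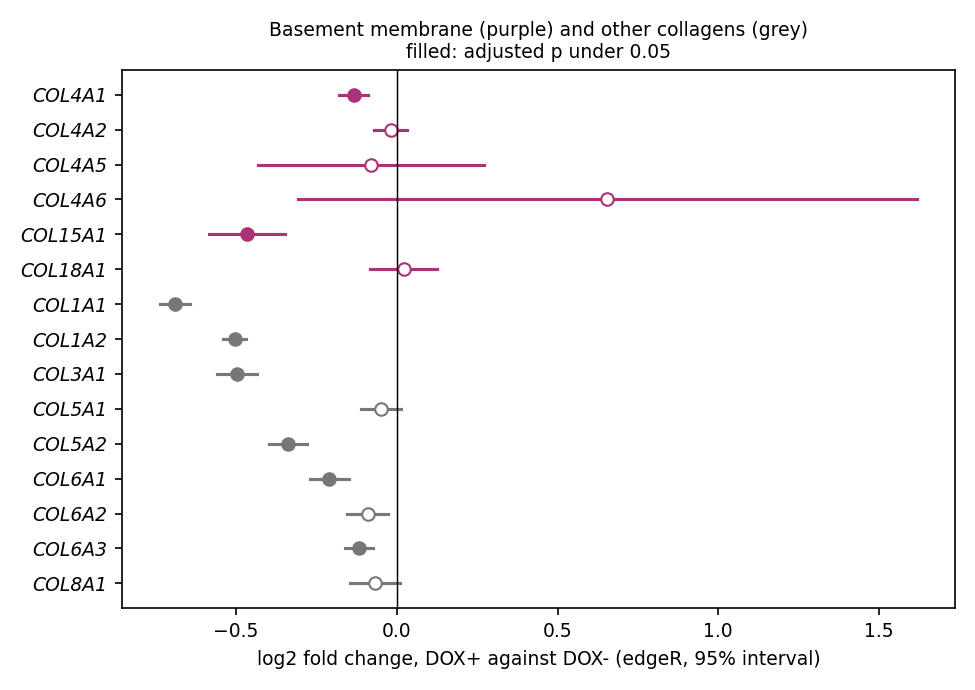
Log2 fold changes with 95% intervals from edgeR for the 6 tested basement membrane collagens (purple) and 9 other collagens (grey); filled points had an adjusted p under 0.05. COL15A1 at -0.47 lies near COL3A1 at -0.50, COL4A2 and COL18A1 lie within 0.03 of 0, and the interval of COL4A6 is the widest.

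The other proteins of basement membranes were read from a list of laminins, the linkers nidogen and the proteoglycans perlecan and agrin. Of 19 genes, 13 were tested and 0 were called in either direction by edgeR, where 1.12% of all features tested were called. Of the 13, 10 lay below and 3 above 0, at a median of -0.08. An unadjusted edgeR p under 0.05 was found for 5 of the 13 and for 2099 of all 13991 features. LAMC1, the gamma1 chain of most laminins, stood at 917 ± 8.83 CPM (SD, n = 3) and 913 ± 10.3 CPM (SD, n = 3). HSPG2, which encodes perlecan, had a log2 fold change of -0.08 (edgeR adjusted p = 0.406). Of the 13, 6 had every DOX+ library below every DOX- library and 2 had every one above, or 8 of 13, where 20.3% of all features tested were separated (10.6% lower and 9.73% higher). With DESeq2 in place of edgeR, LAMB2, NID1 and NID2 were called lower and LAMB1 higher, at log2 fold changes of -0.12, -0.10, -0.11 and 0.13, where DESeq2 called 2.85% of features lower and 2.77% higher.

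Collagen chains are hydroxylated, folded and exported, and a list of 19 genes put under these steps and crosslinking was tested. It also holds COL4A3BP (log2 fold change 0.0085), which is not a gene of these steps. Over all features tested, edgeR called 0.715% lower and 0.4% higher. SPARC, a secreted protein that binds collagen IV and other collagens, fell by 0.60 (edgeR adjusted p = 2.15e-09), its mean level being 4188 ± 95.2 in DOX- and 2758 ± 34.3 CPM in DOX+ cells (SD, n = 3 each). SERPINH1, the collagen chaperone also known as HSP47, fell by 0.18 (edgeR adjusted p = 0.00629; 0.0582 without DOX+ replicate 1). PLOD2, a lysyl hydroxylase that acts mainly on telopeptides, was higher in DOX+ cells, at 189 ± 11.7 against 159 ± 7.82 CPM (SD, n = 3 each). Its log2 fold change was 0.25 (edgeR adjusted p = 0.0325). Leaving out replicate 1 or 3 of the DOX- cells ended that call (edgeR adjusted p of 0.143 and 0.164), as did leaving out replicate 1 or 2 of the DOX+ cells (0.134 and 0.0863). The other 16 were not called by edgeR, among them PXDN, the peroxidase that forms the sulfilimine crosslinks of collagen IV, at -0.04 (edgeR adjusted p = 0.522). Of these 16, DESeq2 called P4HA1 (0.17), P3H2 (0.12) and TXNDC5 (0.09) higher, with DESeq2 adjusted p-values of 0.00104, 0.00292 and 0.0462 against 0.0684, 0.0876 and 0.198 by edgeR. P4HA1 encodes a catalytic subunit of prolyl 4-hydroxylase and P3H2 a prolyl 3-hydroxylase. The median over the 19 was 0.02, with 7 below and 12 above 0. An unadjusted edgeR p under 0.05 was found for 8 of the 19 and for 2099 of all 13991 features. Of the 19, 5 had every DOX+ library above every DOX- library and 3 had every one below, where 20.3% of all features tested were separated.

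Among 15 receptor genes tested, 1 was called by edgeR, where 1.12% of all features tested were called. ITGA2, the alpha2 subunit of a collagen-binding integrin, fell from 148 ± 0.487 to 118 ± 6.81 CPM (SD, n = 3 each), a log2 fold change of -0.33 (edgeR adjusted p = 0.00269). ITGAV, the integrin alpha V subunit, had a log2 fold change of 0.22 that edgeR did not call (adjusted p = 0.0587) and DESeq2 called higher (adjusted p = 0.000324). ITGA1, whose integrin binds collagen IV, had a log2 fold change of 0.11 (edgeR adjusted p = 0.214), and DDR1 and DDR2, the collagen-binding receptor tyrosine kinases, had -0.04 and -0.0069. The median over the 15 was -0.0056, with 9 below and 6 above 0. An unadjusted edgeR p under 0.05 was found for 5 of the 15 and for 2099 of all 13991 features. Of the 15, 3 had every DOX+ library above every DOX- library and 1 had every one below, where 20.3% of all features tested were separated. Of 8 proteinase and inhibitor genes tested, 0 were called by edgeR or by DESeq2, 1 of the 8 having an unadjusted edgeR p under 0.05, where 2099 of all 13991 features did. The 2 with the highest levels were TIMP2, an inhibitor of MMP2, at a log2 fold change of 0.03, and CTSB, the lysosomal protease cathepsin B, at -0.02. MMP2, a gelatinase that cleaves collagen IV, had a log2 fold change of -0.07 (edgeR adjusted p = 0.287).

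**Figure D5:**
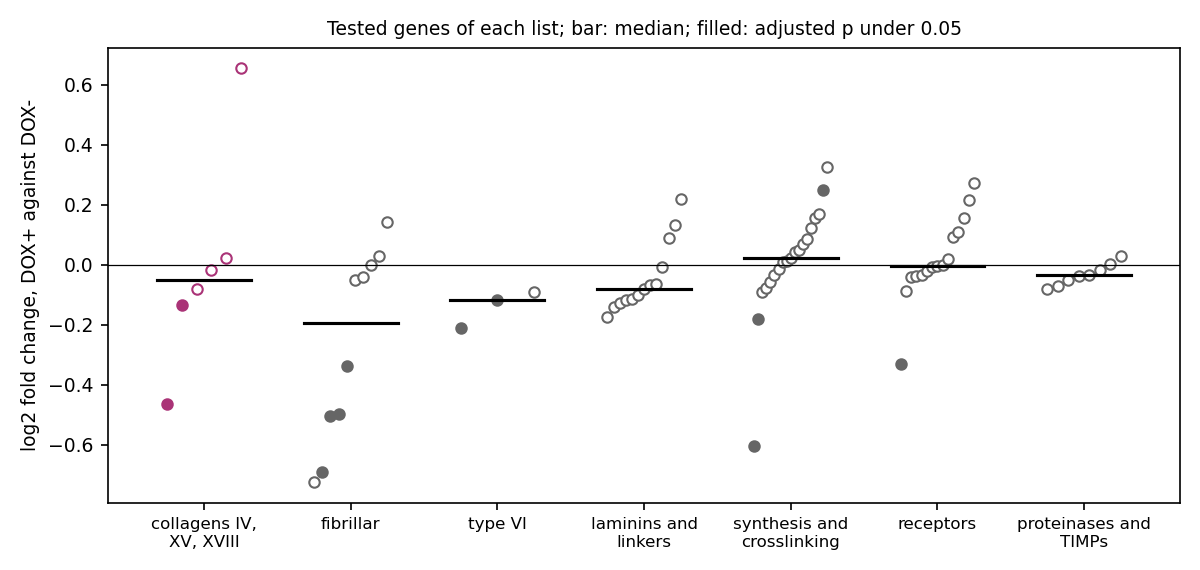
Log2 fold changes of the tested genes in 7 lists, 1 point per gene, with a bar at the median and filled points where the edgeR adjusted p was under 0.05. Called genes are 2 of 6 basement membrane collagens, 4 of 10 fibrillar chains, 2 of 3 type VI chains, 0 of 13 laminins and linkers, 3 of 19 synthesis and crosslinking genes, 1 of 15 receptors and 0 of 8 proteinases and inhibitors. Over all features tested, 1.12% were called.

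The features most like COL4A1 over the 6 libraries, by the Pearson correlation of log2 CPM among 11247 features, were COL5A2 (0.99), E4F1 (0.99), COX17 (0.99), FUZ (0.99) and PHGDH (0.99). COL15A1 ranked 15 in that order, with a correlation of 0.98. These correlations hold the difference between the groups, since COL4A1, COL5A2, PHGDH and COL15A1 were all called lower. E4F1, COX17 and FUZ had log2 fold changes of -0.24, -0.26 and -0.27 and were not called (edgeR adjusted p = 0.0767, 0.174 and 0.247). For COL4A2 they included AGAP4, DNAJB12, FP565260.1 and ETFB (0.98 to 1.00), and none of these 4 was called. For COL18A1 they were GBF1, P3H3, ARHGAP32, RBM4B and LTBP3 (0.98 to 0.99), and again none was called. The order is a description only, and the 6 libraries share their 2 groups.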

How the data were processed

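RNA of 6 IMR-90 libraries was poly(A)-selected and sequenced in read pairs of 150 bp. The authors aligned filtered reads to GRCh38 with HISAT2 and used StringTie; versions, annotation release, strand setting and the counting step are not given in the sources used here. The deposited table holds whole-number counts and FPKM per gene and library, of which 17 stray lines were dropped. Counts entered every test, and FPKM only comparisons of levels and ratios. With edgeR 4.0.16 in R 4.3.3, features passing filterByExpr (minimum count 10; 13991 features) were scaled by TMM and compared by the quasi-likelihood test without covariates, with Benjamini-Hochberg adjustment over all of them and a threshold of 0.05. Each standard error was taken as the size of the log2 fold change over the root of F. The fit was tested on simulated counts. Ratios used a pseudocount of 0.5 and exact permutation tests. With 34057675 to 36120260 counts per library, counting error is largest for COL4A3, COL4A4 and COL4A6. The members, lists and added ratios were chosen with earlier results of these data known. Genes named are the members, ZNF469, called genes of each list or its 2 most abundant where none was called, and the 5 features most like COL4A1, COL4A2 and COL18A1, of which 1 is not reported here; others were named after their values were seen. Alternatives were other scalings and filters, DESeq2 1.42.0, limma-voom (limma 3.58.1), leaving out each library, a replicate block and removal of the transcript length trend (lowess, span 0.3). Promoter sequences are from RefSeq on GRCh38.p14, where all 8 genes matched, and gene models from GENCODE 44, a release that may differ from the authors'.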

Additional observations from a re-analysis of the deposited data

How the results depend on the processing

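COL15A1 was called lower in all 15 alternatives and COL4A1 in 13. Leaving out each library moved the log2 fold change of COL15A1 between -0.50 and -0.42, of COL4A1 between -0.14 and -0.12, of COL4A2 between -0.04 and -0.0038, of COL18A1 between -0.0139 and 0.0795, of COL4A5 between -0.222 and 0.0789 and of COL4A6 between 0.46 and 1.02. COL4A1 lost its call without DOX- replicate 1 or DOX+ replicate 1, which left 1 of the 2 members called lower (range 1 to 2). The signs of 3 uncalled members turned: COL4A2 with library size scaling (0.0015), COL18A1 with the length trend removed (-0.0056) and when DOX- replicate 2 (-0.0028) or the DOX+ replicates 1 (-0.0027) or 3 (-0.0139) were left out, and COL4A5 without DOX- replicate 1 (0.0789) or DOX+ replicate 1 (0.0054). The difference in the log2 ratio of COL4A1 to COL4A2 stayed between -0.13 and -0.10 without each library.

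Over all features, 56 were called higher and 100 lower. Library size scaling called 88 higher and 77 lower, which turned the balance, no filter on low counts 127 higher and 163 lower, DESeq2 260 and 267, and the replicate block 135 and 157; without each library 20 to 69 were higher and 54 to 92 lower. Library size scaling called 3 synthesis genes and 1 receptor higher. No filter called 2 synthesis genes and 1 receptor higher. DESeq2 called 1 laminin gene higher and 3 of the laminin list lower, 4 synthesis genes and 1 receptor higher. The replicate block called 2 genes of the laminin list lower, 2 synthesis genes higher and 2 receptors higher. Without each library, 0 to 1 synthesis genes were higher, 1 to 2 lower, and 0 to 1 receptors higher. Over all features, the deviations of same-numbered libraries from their group means correlated at -0.0286, -0.0353 and 0.0382. Whether same-numbered libraries were handled together is not stated and was not tested, and values near 0 over all features cannot settle it. The block changed no call among the members. The cause of these shifts was not tested. Depth limits COL4A3, COL4A4 and COL4A6, where a few reads per library cannot show a change.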

Other observations

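The length implied by the deposited values, the library-scaled read count over FPKM, differed between libraries for COL18A1. It was 5.32 and 5.26 kb in DOX- replicate 1 and DOX+ replicate 1, and 5.89 to 6.06 kb in the other 4 libraries. For COL4A1 it stayed between 7.16 and 7.33 kb and for COL15A1 between 5.97 and 6.11 kb. COL18A1 has forms that start at different promoters, but transcript-level values were not analysed here, and the counts of COL18A1 in the same libraries showed no such split.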
